A study of Mus musculus with 6 samples.

Results

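The genes of the cytosolic ribosomal proteins were examined in mouse quadriceps muscle. They were taken from the count files by symbol, as the rows that begin with Rpl or Rps and a digit together with Rplp0, Rplp1, Rplp2 and Rpsa. Rows named as pseudogenes (symbols holding -ps), the Rps6k kinases and Rps19bp1 were left out. This gave 89 of 27179 rows, made up of 31 genes of the small (40S) subunit, 46 genes of the large (60S) subunit, 8 paralogs of these genes and 4 rows for retrogenes or further copies (Rpl6l, Rpl32l, Rpl37rt and Rps27rt). Of the 89 rows, 86 passed the filter on low counts. The other 3 were Rpl39, with 1 to 6 counts per library, Rpl39l, with 0 to 8, and Rpl10l, with 3 counts in knockout A and 0 in the other libraries.

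RNA-seq compared 3 miDrp1KO mice (knockouts A, E and F) with 3 control mice (B, C and D) at 3 weeks post-Dnm1l deletion. The miDrp1KO mice carried floxed Dnm1l (Drp1) alleles and the HSA-MerCreMer transgene, a tamoxifen-inducible Cre recombinase driven by the human skeletal actin promoter, so deletion is limited to skeletal muscle fibers. Controls, labelled f/f, carried floxed alleles without the deletion, and mice of both groups received tamoxifen. The paper names normal chow and a high-fat diet, without giving the diet of the sequenced mice. The mice were males on a C57BL/6J background that received tamoxifen at 3 months of age. Each library was made from a piece of whole quadriceps, so cells other than muscle fibers, in which the Cre is not active, contributed RNA, and a different number of cells and a different amount of RNA per cell cannot be told apart.

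Each ribosome holds one copy of nearly every ribosomal protein, and the subunits are assembled in the nucleolus around ribosomal RNA. The messenger RNAs of these proteins begin with a cytidine and a run of pyrimidines, the terminal oligopyrimidine (TOP) motif, through which mTORC1 and its effector Larp1 control their translation and stability. Skeletal muscle uses some ribosomal proteins of its own. Rpl3l, a striated muscle paralog, takes the place of Rpl3 in ribosomes of adult fibers.

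Libraries held 13989588 to 62042255 counts, and ribosomal RNA took 1.47 to 24.4% of them. Markers of skeletal muscle fibers were abundant in every library, with a summed level of 77624 to 167402 CPM (counts scaled by library sizes normalized with the trimmed mean of M values). In controls B, C and D, Dnm1l was at 156, 114 and 140 CPM, and in knockouts A, E and F it was at 70.6, 81.3 and 66.2 CPM, so that the groups did not overlap. With all 6 libraries its log2 fold change was -0.91 (edgeR adjusted p = 0.362), so it did not pass the test. Across all genes, 2 of 16483 (0.0121%) had an adjusted p under 0.05 in the edgeR test, and neither was a ribosomal protein gene.

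A pair of libraries stood apart from the rest in these genes, and its members came from different genotypes. Knockout A and control C had nearly the same profile over the 86 genes (Spearman correlation 0.993), and so did controls B and D (0.993), while A and C correlated with B, D, E and F at 0.725 to 0.806. The first principal component of the 86 genes held 82.8% of the variance and placed A and C at -8.99 and -7.87 and the other 4 libraries between 3.19 and 5.35. Over the 16397 other tested genes, the first component held 41.2% of the variance. It placed C at -63.5, A at -27.3, D at -4.73 and B, E and F between 15.7 and 40.8. In 26 of the 86 genes both A and C lay below all other libraries, where 11.0% of all tested genes did so, and in another 26 both lay above, against 11.2% of all tested genes. A difference of more than 2-fold between A and C and the mean of the other 4 was seen in 31 of the 86 genes, against 7.55% of all tested genes. Of the genes past 2-fold, 15 of 19 in the 60S subunit were below and 6 of 10 in the 40S subunit were above. Among all tested genes past 2-fold, 924 of 1245 were below and 321 above, so most went below there too. Among the 45 tested 60S genes, both A and C lay below all other libraries in 20 and above in 10. Among the 31 tested 40S genes, both lay below in 5 and above in 14. A difference between the subunits was not tested. The libraries had been combined into 2 pools for sequencing, but which library was in which pool is not given in the sources used here, and the part of pooling was not tested. Results on genotype are therefore given with and without A and C.

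**Figure D1:**
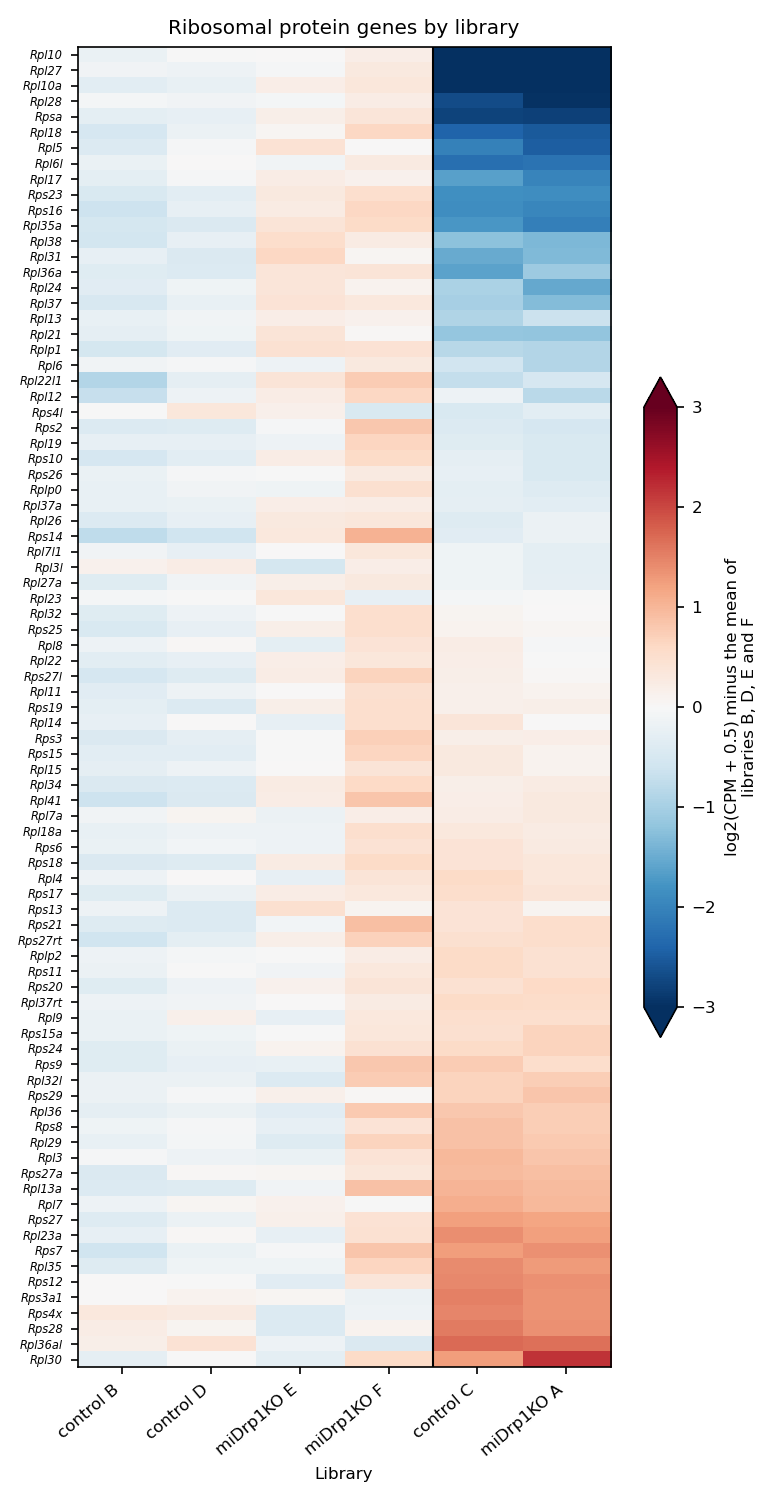
Level of 85 of the 86 tested ribosomal protein genes in each library. Rows are genes ordered by the difference between libraries A and C and the other 4, columns are libraries, and color gives log2(CPM + 0.5) minus the mean of libraries B, D, E and F (values past 3 in either direction share the end colors). Control C and miDrp1KO A, right of the line, are alike and differ from the other 4 libraries in both directions.

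The split was widest in genes of the large subunit. Rpl10, which is added late in 60S assembly, measured 2.62 CPM in A and 4.66 CPM in C but 81.5, 91.5, 93.7 and 107 CPM in B, D, E and F, a 25.6-fold difference of the means. Rpl27 measured 1.22 and 2.19 CPM in A and C against 31.2 to 42.6 CPM elsewhere, and Rpl10a 1.94 and 2.48 CPM against 27.5 to 44.2 CPM. Rpsa, the 40S protein that is also known as a laminin receptor, measured 30.3 and 31.1 CPM in A and C and 175, 181, 243 and 275 CPM in B, D, E and F. Rpl5, which with Rpl11 and 5S ribosomal RNA forms the particle that restrains Mdm2, measured 4.86 and 6.85 CPM against 21.8 to 39.7 CPM. Its partner Rpl11 showed no such split, with 33.6 and 34.3 CPM in A and C and 24.3 to 43.4 CPM in the other 4.

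Other genes were highest in A and C. Rpl30 measured 102 and 53.6 CPM in A and C against 17.9 to 33.6 CPM in the other 4 libraries, and Rpl36al 104 and 108 CPM against 24.2 to 44.3 CPM. Rps4x, the X-linked form of a 40S protein, measured 46.5 and 49.9 CPM against 13.3 to 22.3 CPM. Rps28 measured 18.8 and 21.5 CPM against 5.10 to 8.10 CPM. Rpl27, Rpl10a and Rpl30 were chosen for mention after their values were seen.

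Ribosomal protein genes have many near-identical copies in the mouse genome, and a short read can match several of them. Among the 88 genes with a GENCODE M21 transcript (GRCm38), the median transcript shared 42.1% of its 50-base windows exactly with transcripts of other loci, where the median over tested genes was 0%. Over 50% was shared in 34 of the 88 genes (38.6%), against 2.60% of tested genes. Shared sequence ran from 0% in Rpl3l and Rpl39l to 98.6% in Rps27. The sequences below show how closely some members match their copies. The first 120 coding bases of Rps27 (GRCm38, chr3:90212667-90213648, minus strand) are the same as those of the single-exon retrogene Rps27rt (chr9:114982366-114982739, minus strand), and over all 252 coding bases the copies differ at 0 positions. The paralog Rps27l (chr9:66944624-66949522, plus strand) differs from Rps27 at 58 of 252 coding bases, of which 28 are in the stretch shown, with capitals in Rps27l at the bases that differ from Rps27.
Rps27 and Rps27rt: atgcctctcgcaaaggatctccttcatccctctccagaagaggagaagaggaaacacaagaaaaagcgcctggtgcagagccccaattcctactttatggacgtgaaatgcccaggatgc
Rps27l: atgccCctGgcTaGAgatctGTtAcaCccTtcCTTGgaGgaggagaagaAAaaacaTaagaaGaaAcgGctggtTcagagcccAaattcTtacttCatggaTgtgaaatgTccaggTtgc

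Rps27rt was counted at a higher level than Rps27 in every library. Its share of the counts of this pair was 80.1, 80.7, 82.3 and 84.4% in B, D, E and F and 73.9 and 72.3% in A and C. Rps27l, which shares 22.4% of its 50-base windows with other loci, measured 23.3, 37.9 and 25.5 CPM in controls B, C and D, against 34.3, 38.9 and 53.3 in knockouts A, E and F. The retrogene row Rpl37rt likewise held 90.7 to 98.2% of the counts of Rpl37 and Rpl37rt together in the 6 libraries, with 59.4 to 99.2 CPM against 1.75 to 6.81 CPM for Rpl37. The copy rows Rpl32l and Rpl6l were below their partners in every library. Rpl32l held 12.6 to 24.2% of the counts of its pair with Rpl32, and Rpl6l 19.3 to 46.1% of its pair with Rpl6. How reads with several matches were counted is not given in the sources used here, so these levels are uncertain.

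The first 120 coding bases of Rpl10 (chrX:74270816-74273135, plus strand) are shown because the gene had the widest split. They are the same as those of the processed pseudogene Rpl10-ps1 (chr2:105554201-105554845, minus strand), and 6 of 10244 processed pseudogene transcripts came within 12 differences of them.
Rpl10 and Rpl10-ps1: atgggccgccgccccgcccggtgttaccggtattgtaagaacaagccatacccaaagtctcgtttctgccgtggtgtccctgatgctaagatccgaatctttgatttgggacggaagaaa

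Rpl36a (chrX:134585654-134588062, plus strand) and Rpl36al (chr12:69182734-69184067, minus strand) encode nearly the same 60S protein and are shown because they split in opposite directions. They differ at 39 of 318 coding bases, 18 of them among the first 120, where capitals mark the differences.
Rpl36a: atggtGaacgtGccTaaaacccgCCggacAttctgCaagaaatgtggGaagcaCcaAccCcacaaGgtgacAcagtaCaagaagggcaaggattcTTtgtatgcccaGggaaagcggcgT
Rpl36al: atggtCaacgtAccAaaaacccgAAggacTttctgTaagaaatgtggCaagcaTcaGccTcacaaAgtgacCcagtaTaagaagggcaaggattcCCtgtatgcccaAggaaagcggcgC

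Rpl36a measured 20.7, 8.53 and 20.2 CPM in controls B, C and D, against 12.2, 34.7 and 35.4 in knockouts A, E and F. Rpl36al measured 37.2, 108 and 44.3 CPM in the controls and 104, 29.4 and 24.2 CPM in the knockouts. Rpl36al thus held 89.5 and 92.7% of the pair's counts in A and C, 64.2 and 68.7% in controls B and D and 45.9 and 40.6% in knockouts E and F. Without A and C, the log2 fold changes were 0.75 for Rpl36a (edgeR adjusted p = 0.0731) and -0.63 for Rpl36al (adjusted p = 0.130), so neither passed.

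Among the other tested genes with a mean of at least 1 CPM, the share past 2-fold between A and C and the other libraries was 2.71% where no 50-base window was shared (8962 genes), 2.65% at up to 25% sharing, 8.87% at up to 50%, 25.4% at up to 75% and 38.4% above that (125 genes). Among the ribosomal protein genes it was 2 of 14 at up to 25% sharing, 12 of 35 at up to 50%, 7 of 16 at up to 75% and 8 of 18 above that. The limit of 1 CPM was not applied to the ribosomal protein genes. Rpl3l, which shares no window, was not past 2-fold. Over the 85 tested members with a transcript, the Spearman correlation between shared sequence and the size of the split was 0.284, a description across genes that share the same 6 libraries. The pseudogene rows that the symbol rule leaves out showed the split as well, with 16 of the 21 tested ones past 2-fold. Rps12-ps24, chosen after its values were seen, measured 0.437 and 1.02 CPM in A and C and 8.52 to 16.2 CPM in the other 4. A cause of the split was not tested.

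**Figure D2:**
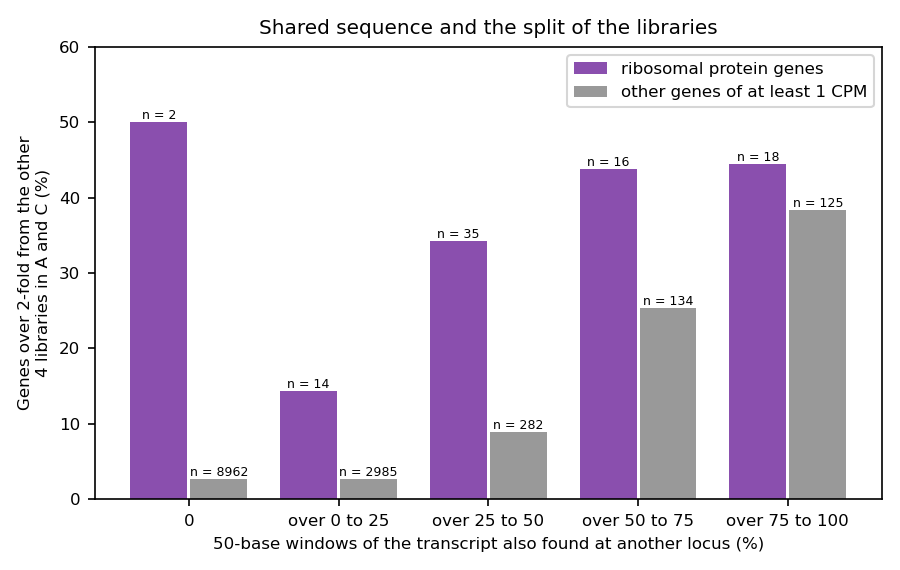
Percent of genes in which libraries A and C differed by more than 2-fold from the mean of the other 4 (vertical axis), by the percent of 50-base transcript windows also found at another locus (horizontal axis), for tested ribosomal protein genes and for other tested genes of at least 1 CPM, with the number of genes over each bar. Among other genes the percent goes from 2.71 to 38.4 with sharing, and all 5 bars of ribosomal protein genes rest on 35 genes or fewer.

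Levels per kilobase of transcript differed by 289-fold among tested members, from 0.848 CPM per kb for Rps13 to 245 CPM per kb for Rplp1, with a median of 34.1 (means of B, D, E and F). After Rplp1, the acidic stalk protein that helps recruit elongation factors, came Rpl3l with 212 CPM per kb, Rpl23 with 197, Rpl26 with 183 and Rplp0, the base of the stalk, with 179. In A and C these levels were 128 CPM per kb for Rplp1, 180 for Rpl3l, 190 for Rpl23, 147 for Rpl26 and 139 for Rplp0, and Rpl4 was at 212 there against 156 elsewhere. Rplp2, the other acidic stalk protein, was at 27.1 CPM per kb in B, D, E and F and 39.0 in A and C. The lowest gene, Rps13, shares 83.0% of its 50-base windows with other loci and measured 0.233 to 0.858 CPM. The pseudogene row Rps13-ps4, named after its values were seen, measured 4.36 to 13.5 CPM, so the low end of the range is uncertain. The range describes counts per length on these gene models and not the amount of protein.

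Rpl3l was far above Rpl3 in every library. It measured 309, 262 and 331 CPM in controls B, C and D, against 233, 198 and 326 in knockouts A, E and F, and it made up 94.3 to 98.0% of the counts of the pair. Rpl3 measured 7.43, 15.5 and 6.85 CPM in the controls and 13.998, 6.64 and 10.3 CPM in the knockouts, highest in C and A. Rpl3 shares 85.6% of its windows with other loci and Rpl3l 0%. The log2 fold change of Rpl3l was -0.25 (SE 0.22, edgeR adjusted p = 0.707), so it did not pass, and knockout F lay within the control range.

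With all 6 libraries, the levels of ribosomal protein genes were on balance higher in miDrp1KO than in control muscle, but no gene passed the test. Of the 86 genes, 78 had a log2 fold change above 0 (60 to 81 under the alternatives), where 52.0% of all tested genes did. The median was 0.29 (quartiles 0.12 and 0.52), beside 0.02 over all tested genes (quartiles -0.21 and 0.28). With library totals in place of normalization the medians were 0.54 and 0.26, and with length and GC correction they were 0.19 and 0.01, with 60 of the 86 above 0. The 16 tested genes sharing under 25% of their windows had a median of 0.30, and the 69 sharing more had 0.29. With p-values of the edgeR quasi-likelihood fit adjusted over all tested genes, 0 of the 86 fell under 0.05, beside 0.0121% of all genes, and the lowest adjusted p was 0.379. DESeq2 called 1 of them, Rps14, beside 0.310% of all genes with a DESeq2 p-value, and limma voom called 0. The p-values measure the spread between these mice, each represented by 1 library. At an unadjusted p under 0.05, 9 of the 86 were higher, beside 4.68% of all tested genes, and 0 were lower, beside 6.22%. The count of higher genes depended on which library was left out. It was 25 without knockout A, 22 without control C, 4 without control D and 3 each without control B or knockout F. The count without knockout E is not given here. Over all 6 of these fits the median ran from 0.18 to 0.43. In 5 of the 86 genes (Rpl26, Rpl34, Rpl41, Rps14 and Rps19) every miDrp1KO library lay above every control library, beside 7.67% of all tested genes, and in 0 did they all lie below, beside 10.3%.

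Rps14, a 40S protein whose loss is known from a form of myelodysplastic anemia, had the lowest p and the largest difference. It measured 24.7, 33.1 and 27.8 CPM in controls B, C and D, against 37.1, 52.3 and 87.3 in knockouts A, E and F. The groups did not overlap, and the spread among knockouts was wide (28.5 ± 4.24 against 58.9 ± 25.8 CPM, mean ± SD, n = 3 in each). The exact permutation test, two-sided, gave p = 0.1, which 3 against 3 libraries cannot go below. On the log2 scale the difference was 1.05 (SE 0.29, edgeR adjusted p = 0.379), with adjusted p from 0.0103 to 0.877 over 19 alternatives.

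Rpl41, the shortest ribosomal protein, measured 38.9, 68.8 and 44.6 CPM in controls B, C and D, against 73.9, 70.4 and 107 in knockouts A, E and F (log2 fold change 0.73, SE 0.24, edgeR adjusted p = 0.387). Rpl34, a 60S protein, measured 20.03, 30.6 and 20.5 CPM in the controls and 32.3, 32.1 and 41.1 CPM in the knockouts. In both genes control C lay close to the lowest knockout library and well above controls B and D. Rpl26 measured 82.0, 82.2 and 90.9 CPM in the controls and 95.4, 134 and 138 CPM in the knockouts, with A nearest to the controls. Rps19, the 40S protein mutated in Diamond-Blackfan anemia, measured 7.53, 10.3 and 6.85 CPM against 10.5, 10.6 and 13.4 CPM. Rpl22l1, the paralog of Rpl22, was low, at 1.42, 1.68 and 2.47 CPM in the controls and 1.99, 4.17 and 5.47 CPM in the knockouts, and its groups overlapped through A.

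**Figure D3:**
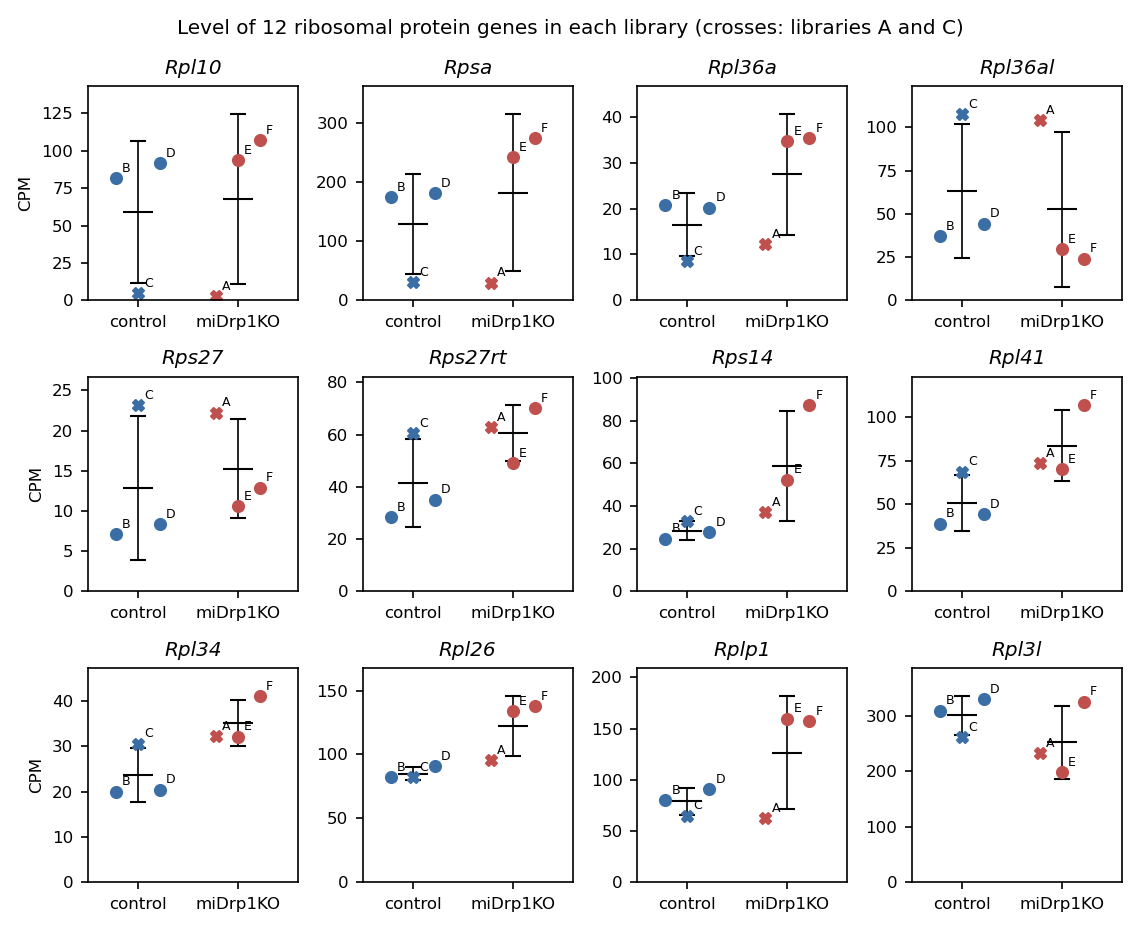
Level in CPM of 12 ribosomal protein genes in each library, by genotype. Points are libraries named by letter, crosses mark libraries A and C, and the bar with whiskers is the mean ± SD of 3 libraries. In Rpl10, Rpsa, Rpl36a, Rpl36al and Rps27, A and C lie together whatever their genotype, whereas in Rps14, Rpl41, Rpl34 and Rpl26 the 3 miDrp1KO libraries lie above the 3 control libraries.

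The stalk proteins showed no difference between genotypes that passed the test. Rplp0 measured 205, 194 and 220 CPM in controls B, C and D, against 183, 217 and 331 in knockouts A, E and F, and knockout F alone was above the control range. Rplp1 measured 80.3, 65.3 and 91.4 CPM in the controls and 62.8, 160 and 157 CPM in the knockouts, where A was lowest of all. Rplp2 measured 23.2, 39.3 and 25.1 CPM in the controls and 35.8, 25.7 and 30.6 CPM in the knockouts, so the groups overlapped.

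Other members with known roles did not pass the test with all 6 libraries. Rps6, the substrate of S6 kinase downstream of mTORC1, measured 61.1, 92.7 and 66.3 CPM in controls B, C and D, against 84.2, 62.5 and 93.9 in knockouts A, E and F (log2 fold change 0.13, edgeR adjusted p = 0.857). Rps27a, made as a fusion with ubiquitin, measured 3.46, 9.69 and 4.93 CPM in the controls and 9.48, 5.001 and 6.24 CPM in the knockouts. Rpl38, known for control of Hox gene translation, measured 1.47, 0.729 and 1.93 CPM in the controls and 0.632, 3.65 and 2.88 CPM in the knockouts. Knockouts E and F were above the control range and A was lowest of all (log2 fold change 0.75, edgeR adjusted p = 0.673). The genes with the lowest fold changes were Rps4x (-0.31), Rps4l (-0.26), Rpl36al (-0.26), Rpl3l (-0.25) and Rps28 (-0.22), with edgeR adjusted p from 0.707 to 0.935. Among ribosomal proteins whose symbols fall outside the rule, Fau, the fusion precursor of the 40S protein eS30, had a log2 fold change of 0.69 (edgeR adjusted p = 0.824), and Rack1, a 40S scaffold, had 0.45 (edgeR adjusted p = 0.480), so neither passed. Rps16, among the 5 largest fold changes with 0.75, measured 11.7, 4.66 and 15.4 CPM in the controls and 4.33, 21.6 and 28.03 CPM in the knockouts, so that the groups overlapped through A and C (edgeR adjusted p = 0.786). Rpl7 measured 88.1, 208 and 102 CPM in the controls and 193, 107 and 96.7 CPM in the knockouts, while its paralog Rpl7l1 was between 17.0 and 26.6 CPM in all 6 libraries.

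The genotype difference depended on which libraries were compared. In knockouts E and F against controls B and D, the difference in mean log2 CPM was above 0 in 80 of the 86 genes, beside 50.8% of all tested genes, with a median of 0.46 beside 0.01 over all genes. Both knockouts lay above both controls in 58 of the 86 genes, beside 24.8% of all tested genes, and below in 2, beside 26.0%. In knockout A against control C, the difference was above 0 in 23 of the 86, beside 49.6% of all tested genes, with a median of -0.09 beside -0.01 over all genes. That comparison has 1 library on each side and no replicate check.

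Fitted without A and C, which was added after seeing the data and leaves 2 libraries per group, edgeR called 2 of the 86 genes, both higher in miDrp1KO, beside 0.921% of the 17808 genes tested. They were Rps14 (log2 fold change 1.38, SE 0.24, edgeR adjusted p = 0.0370) and Rpl35a, a 60S protein (0.96, SE 0.19, edgeR adjusted p = 0.0474). Rpl35a measured 13.1 and 14.1 CPM in controls B and D and 25.1 and 28.99 CPM in knockouts E and F, while control C and knockout A were at 5.32 and 4.23 CPM. At an unadjusted p under 0.05, 39 of the 86 were higher, beside 8.22% of genes, and 2 were lower (Rps4x and Rpl36al), beside 10.3%. With the split between A and C and the rest as a covariate, 0 of the 86 passed (lowest adjusted p 0.114), beside 0.0789% of genes. At an unadjusted p under 0.05, 24 were higher, beside 6.91% of genes, and 2 lower, beside 8.48%. In that fit 79 of the 86 fold changes were above 0, beside 52.2% of genes, and without A and C also 79, beside 51.4%. A test of whether the genotype difference was the same within A and C as within the other 4 called 0 of the 86 (lowest adjusted p 0.847) and found 19 at an unadjusted p under 0.05, beside 5.81% of genes. It has 1 library of each genotype on the side of A and C, so its spread comes from the other 4 libraries alone, and A and C were set apart after seeing these genes.

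**Figure D4:**
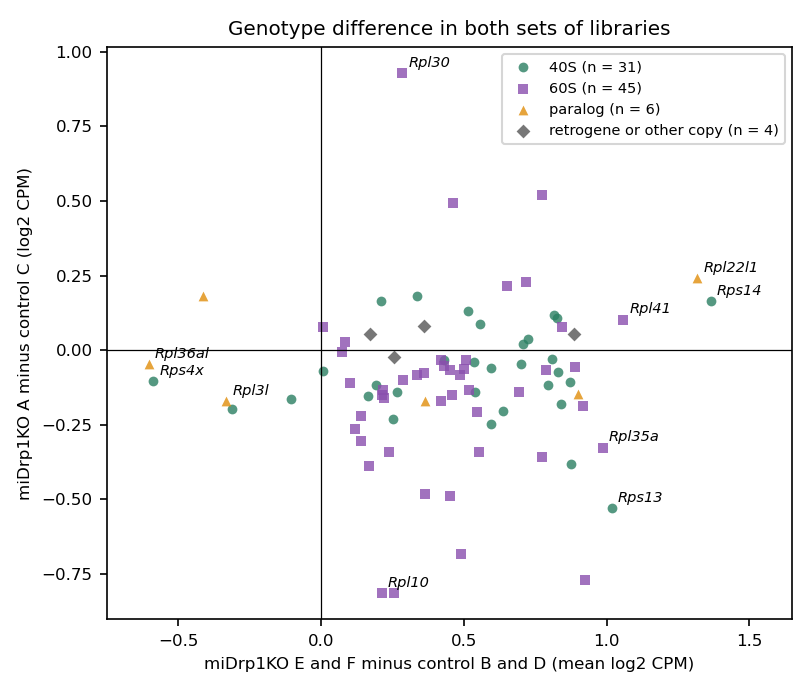
Genotype difference of each of the 86 tested ribosomal protein genes in mean log2 CPM, as knockouts E and F minus controls B and D (horizontal axis) and as knockout A minus control C (vertical axis, 1 library each), with symbols for the subunit. On the horizontal axis 80 genes are right of 0, and on the vertical axis 23 are above 0.

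Both subunits had medians above 0. With all 6 libraries, the median log2 fold change was 0.36 over 31 genes of the 40S subunit and 0.29 over 45 genes of the 60S subunit, and without A and C it was 0.56 and 0.42. The summed level of 40S genes was 1176, 1735 and 1285 CPM in controls B, C and D, against 1683, 1527 and 2087 in knockouts A, E and F. The summed level of 60S genes was 2035, 2535 and 2243 CPM in the controls and 2407, 2496 and 3146 CPM in the knockouts. The sums over all 89 rows were 4244 ± 592 CPM in control and 5017 ± 763 CPM in miDrp1KO muscle (mean ± SD, n = 3 in each), a ratio of 1.18 that did not exceed the spread between libraries (two-sided exact permutation test, p = 0.3). The ratio of E and F to B and D was 1.32, and that of A to C was 0.956. Of the 6 paralogs that were tested, 3 had a log2 fold change above 0 and 3 below, with a median of -0.02, and 2 of them (Rpl22l1 with 1.03 and Rps27l with 0.55) were higher at an unadjusted p under 0.05, beside 4.68% of all tested genes. Whether paralogs differ from the subunit genes was not tested.

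Most other genes of the translation machinery showed no such shift. Of 85 ribosome assembly factors tested, 22 had a log2 fold change above 0 and 63 below (median -0.11), with 2 higher and 10 lower at an unadjusted p under 0.05. Of 29 translation initiation factors, 5 were above 0 and 24 below (median -0.20), with 0 higher and 8 lower at that threshold. Of 11 elongation and release factors, 0 were higher and 3 lower (median -0.07), and of 15 genes of the RNA polymerase I machinery, 1 was higher and 3 were lower (median -0.06). Of 19 regulators of TOP messenger RNAs and mTORC1, 0 were higher and 5 lower (median -0.24). The 19 tested messenger RNAs of other proteins that carry a TOP motif, such as elongation factors, had a median of -0.15, with 1 higher and 0 lower. The background at this threshold was 4.68% higher and 6.22% lower. No gene of these lists passed the adjusted threshold with all 6 libraries. Without A and C, 1 assembly factor (edgeR adjusted p = 0.0370) and 1 initiation factor (edgeR adjusted p = 0.0474) were called lower, beside 0.921% of all genes called in that fit. At an unadjusted p under 0.05, 16 of 85 assembly factors and 9 of 29 initiation factors were lower there, beside 10.3% of all genes.

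**Figure D5:**
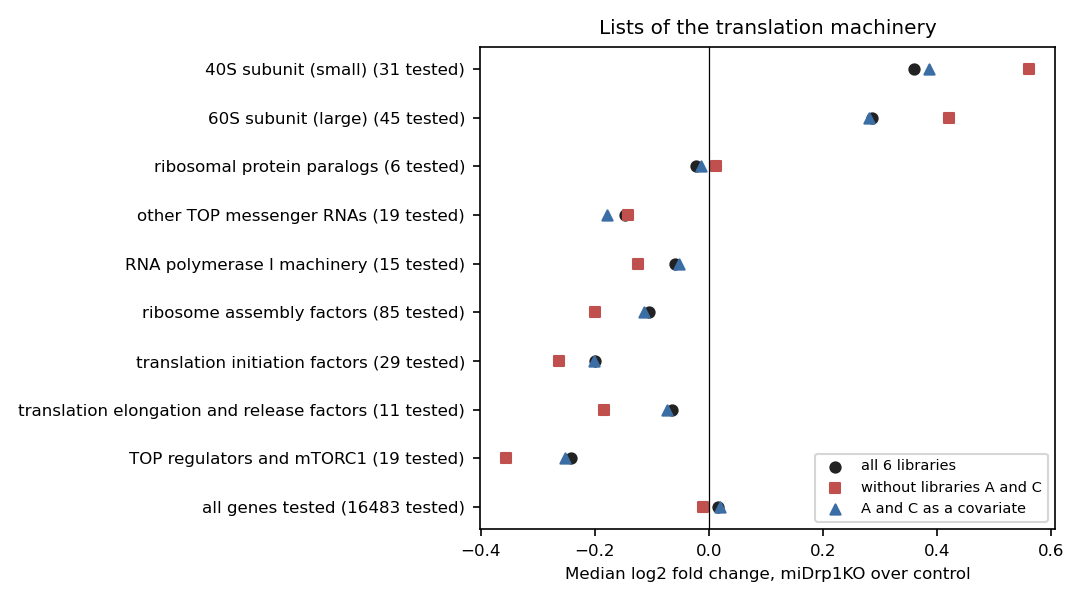
Median log2 fold change of miDrp1KO over control (horizontal axis) for each list of the translation machinery, from the fit of all 6 libraries, the fit without libraries A and C and the fit with them as a covariate. The 40S and 60S lists lie at 0.36 and 0.29 with all libraries and at 0.56 and 0.42 without A and C, while assembly factors, initiation factors and mTORC1 regulators lie below 0 in each fit.

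Markers of other cell types differed in level as well, and are counted here as higher or lower by the sign of the log2 fold change. None passed the adjusted threshold with all 6 libraries. Of 10 macrophage markers, 8 were higher in miDrp1KO muscle, beside 52.0% of all tested genes, with 5 at an unadjusted p under 0.05, beside 4.68%, and their summed level was 143, 264 and 160 CPM in controls B, C and D, against 250, 236 and 237 in knockouts A, E and F. Control replicate C was thus as high in these markers as the knockouts, and it was also as high in summed ribosomal protein genes. Of 10 fibroblast markers, 9 were higher (1302 to 1902 CPM in control, 1496 to 2422 CPM in miDrp1KO muscle), and of 7 satellite cell markers, 6 were higher (43.3 to 47.6 against 47.7 to 67.0 CPM). Of 10 skeletal muscle markers, 8 were lower, with sums of 149892 to 167402 CPM in control and 77624 to 129191 CPM in miDrp1KO muscle, and of 8 adipocyte markers all 8 had a log2 fold change below 0 (714 to 1835 against 404 to 889 CPM). Of 10 endothelial markers, 3 were higher (211 to 379 against 223 to 332 CPM), of 6 Schwann cell markers tested, 5 were higher (36.2 to 51.2 against 40.2 to 72.0 CPM), and of 4 blood markers, 3 were higher (47.2 to 272 against 73.1 to 231 CPM). No marker in these lists was at 0 in all libraries. Without A and C, where the median of ribosomal protein genes was 0.46, fibroblast markers had a median of 0.55 (0.27 with all libraries) and 7 of 10 were higher at an unadjusted p under 0.05, beside 8.22% of all genes in that fit (0 of 10 with all libraries, beside 4.68%). In the fit without A and C all 10 macrophage markers were higher, beside 51.4% of all genes, with 1 called, beside 0.921%, and all 8 adipocyte markers were lower with 1 called. The part of these cells in the levels of ribosomal protein genes was not tested.

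The start regions of the members were read from RefSeq promoters (GRCm38.p6), which were found for 67 of the 89 genes. A pyrimidine run, searched on the coding strand as a C followed by at least 7 C or T bases within 50 bases of the annotated start, was present in 51 of the 67 (76.1%), against 28.7% of all 27024 promoters and 27.4% of those of other tested genes. The motif CCGGAAG, searched on both strands over the whole promoter window (250 bases before to 50 after the start), was present in 25 of the 67 (37.3%), against 9.13% of all promoters and 15.8% of promoters of other tested genes. AAGATGGC was present in 6 of the 67 (8.96%, against 2.87% of all and 4.10% of other tested genes), CACGTG in 5 (7.46%, against 7.24% and 9.66%) and TATAAA in 8 (11.9%, against 14.2% and 8.26%), so that for the last pair the direction depended on the background. Windows of 60 bases from 40 before to 19 after the annotated start, with the pyrimidine run in capitals, are shown for some of the members named above that have a run, chosen as examples after the search, and for Rps27rt, whose window holds no run although its coding sequence is the same as that of Rps27.
Rpl34, chr3:130730379-130730438, minus strand: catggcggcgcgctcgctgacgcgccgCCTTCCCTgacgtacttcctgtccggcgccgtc
Rpl38, chr11:114668540-114668599, plus strand: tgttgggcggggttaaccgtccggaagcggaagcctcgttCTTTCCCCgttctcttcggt
Rpl22l1, chr3:28805468-28805527, plus strand: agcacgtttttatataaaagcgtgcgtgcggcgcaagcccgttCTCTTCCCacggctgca
Rps6, chr4:86857348-86857407, minus strand: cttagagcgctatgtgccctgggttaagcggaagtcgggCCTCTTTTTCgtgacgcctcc
Rpl4, chr9:64173347-64173406, plus strand: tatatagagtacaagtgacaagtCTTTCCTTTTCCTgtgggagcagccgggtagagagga
Rps27, chr3:90213629-90213688, minus strand: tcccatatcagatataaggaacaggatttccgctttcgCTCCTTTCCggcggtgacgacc
Rps27rt, chr9:114982720-114982779, minus strand: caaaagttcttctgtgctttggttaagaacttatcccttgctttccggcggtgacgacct

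Of the 67 genes, 16 had no run, among them Rpsa, Rplp0, Rpl10a, Rpl23, Rps4x, Rps28 and Rpl7l1. Among the genes shown with a run, Rpl34 and Rpl22l1 were higher at an unadjusted p under 0.05, while Rps6 and Rpl4 had log2 fold changes of 0.13 and 0.01. A match of these letters is not a measure of use as a start or of control by mTORC1.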

How the data were processed

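Quadriceps RNA of 6 mice was sequenced after ribosomal RNA depletion (TruSeq Stranded Total RNA, RiboZero Gold). The authors aligned reads to GRCm38, counted them with Rsubread and deposited raw counts per gene, without normalization. Their processing notes also name FastQC and DESeq2 1.30.0. The handling of strand and of reads with several matches is not given in the sources used here. The members and gene lists were chosen with earlier results of these data known. Groups came from the genotype label. Libraries of a group were taken as separate mice.

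Counts were fitted in R 4.3.3 with edgeR 4.0.16 (TMM, filterByExpr, robust quasi-likelihood test, Benjamini-Hochberg adjustment over 16483 genes, threshold 0.05). Log2 CPM used a prior count of 2. The fit was tested on simulated data. Alternatives were DESeq2 1.42.0, limma 3.58.1 voom, other normalizations and filters, ribosomal RNA left out or as a covariate, length and GC correction, pseudogene rows added to members, and leaving out each library. Shared sequence was measured as exact 50-base windows in GENCODE M21 transcripts on both strands. Genes named by rule were Dnm1l, the stalk proteins, paralogs with partners and members of known roles. The rule also took the 5 lowest p-values, largest rises, largest falls and highest levels per length. Other genes are marked as chosen afterwards. Exceptions are Rpl37, Rps13 and the copy rows Rpl6l, Rpl32l, Rpl37rt and Rps27rt, which fall outside the rule and are not marked where they appear. Some genes are not reported here.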

Additional observations from a re-analysis of the deposited data

How the results depend on the processing

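With every alternative, the median log2 fold change of the ribosomal protein genes stayed above 0 (0.18 to 0.54, and 0.20 to 0.57 for 40S and 0.15 to 0.55 for 60S genes). The 60S median was 0.55 with library totals, and the median over all genes then moved to 0.26. Genes called over all genes numbered 82 with DESeq2, 1 with limma voom, 45 with library totals, 8 without a filter, 1 with ribosomal RNA as a covariate and 1 to 7 with 1 library left out, against 2 as reported. In the fits chosen after seeing the data they numbered 164 without libraries A and C and 13 with these as a covariate. Ribosomal protein genes called numbered 1 with DESeq2, 1 with library totals, 2 without A and C and 0 in each other fit. At an adjusted p under 0.1 the fit of all 6 libraries called 0 as well. At an unadjusted p under 0.05 there were 23 with library totals (23 higher), 4 with the ribosomal RNA covariate (4 higher), 5 with length and GC correction (5 higher), 26 with A and C as a covariate (24 higher), 41 without A and C (39 higher) and 3 to 26 (3 to 25 higher) with 1 library left out. The lowest came without control B and the highest without knockout A. Rps14 passed with DESeq2 (adjusted p = 0.0366), library totals (adjusted p = 0.0103) and without A and C, and Dnm1l with DESeq2 (adjusted p = 0.00333) and edgeR without A and C (adjusted p = 0.0463).

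Genes that did not pass changed sign in some fits. Rpl7 was at 0.0067 with voom, 0.0065 with RLE, 0.080 with upper quartile, 0.14 with library totals, 0.0028 without a filter, 0.036 with at least 10 counts, 0.025 without ribosomal RNA genes, 0.071 without A and C and 0.030 with these as a covariate. Rpl10 was at -0.15 with voom, -0.011 with length and GC correction and -0.039 with the A and C covariate, and Rps4l at 0.052 with library totals. With the ribosomal RNA covariate Rpl4 was at -0.16, Rpl3 at -0.22, Rps6 at -0.014 and Rplp2 at -0.0091. With length and GC correction Rpl4 was at -0.0096, Rps27 at -0.014, Rpl23 at -0.0030 and Rplp2 at -0.0079, and Rpl4 was at -0.0049 with DESeq2. With 1 library left out the ranges were -0.38 to 0.78 for Rpl10, -0.089 to 0.23 for Rpl23, -0.19 to 0.51 for Rpl3, -1.21 to 0.35 for Rpl36al, -0.11 to 0.24 for Rpl4, -0.16 to 0.86 for Rpl5, -0.36 to 0.46 for Rpl7, -0.024 to 0.43 for Rplp0, -0.043 to 0.33 for Rplp2, -0.086 to 0.95 for Rps27, -0.053 to 0.68 for Rps27a, -0.92 to 0.41 for Rps28, -0.58 to 0.065 for Rps4l and -1.07 to 0.18 for Rps4x. The cause was not tested. No paired analysis was possible because the groups share no replicate letter. Rps13, under 1 CPM in each library, rests on few counts.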
